A study of Mus musculus with 6 samples.

Results

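The genes of the IL-33, IL-25 and type 2 cytokine axis were read from the infarcted hearts of WT and *Crlf2*-/- mice. The 10 genes were chosen by name, as the rows of the expression table whose gene symbol is *Il33*, *Il1rl1*, *Il25*, *Il17rb*, *Il4*, *Il13*, *Il5*, *Il4ra*, *Il13ra1* or *Stat6*, out of 54532 genes listed. The rule uses gene symbols and no measured value. Of the 10, 6 had enough fragments to be tested and 4 (*Il25*, *Il17rb*, *Il13* and *Il5*) were too low to measure.

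IL-33 and IL-25 are released by barrier and stromal cells on injury, as TSLP is. IL-33 signals through ST2, the product of *Il1rl1*, and IL-25 through IL-17RB. Both act on innate lymphoid cells of group 2 (ILC2), mast cells and Th2 cells, which answer with IL-4, IL-5 and IL-13. IL-4 and IL-13 share the chain IL-4Rα, which pairs with the common γ chain or with IL-13Rα1 and activates STAT6. In the heart, IL-33 is made mainly by fibroblasts and endothelial cells, and ST2 also exists as a soluble form that binds IL-33 without passing on a signal. TSLP uses a receptor of its own, made of the *Crlf2* product and IL-7Rα, and converges on the same type 2 cells.

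The labels give the strain of all animals as C57BL/6 (C57BL/6J in the study's methods), and the methods state male sex for the purchased WT mice. The left anterior descending coronary artery was ligated in each of them, and peri-infarcted and infarcted heart tissue was taken on day 7 post-MI, so that no sham-operated heart was included. Of the 6 libraries, 3 were from WT mice and 3 from mice with a germline knockout of *Crlf2* in every cell. WT mice came from a commercial colony and the knockout was made by another company, so genotype and source cannot be told apart. The labels do not say that each library was a separate mouse, and p-values therefore measure the spread between libraries.

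Sequencing depth was even, at 18508646 to 19682428 fragments on the genes of the table per library. The extraction text in the labels speaks of retinas, whereas the tissue label and the study say heart. Of 8 retina markers none passed the filter, 4 were at 0 fragments in every library, and their summed level was 0.079 to 0.154 FPKM against 739 to 2069 FPKM for 10 cardiomyocyte markers. *Crlf2*, the targeted gene, was measured at 26.8, 24.9 and 21.6 FPKM in the 3 WT libraries and at 13.2, 18.6 and 19.9 FPKM in the 3 *Crlf2*-/- libraries. Every knockout library lay below every WT library, but transcripts assigned to the gene remained and the difference did not pass the test (log2 fold change -0.52, SE 0.17, limma adjusted p = 0.521). A value summed over a gene does not show which exons it came from, so the deletion could not be checked from these values. The study's methods describe genotyping of the mice by PCR.

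Levels are given as FPKM, the fragments of a gene divided by its exon length and by the size of the library, after scaling between libraries. Fold changes compare *Crlf2*-/- with WT on log2(FPKM + 0.1), which understates the change of low genes. Differences were called from limma over all 15520 genes tested, where the p adjusted by Benjamini-Hochberg was 0.05 or less and the log2 fold change was 0.5 or more in either direction. Of all genes tested, 0.0129% were called (2 genes, *Wdfy1* and *Ighg2b*, neither of them in the axis). An unadjusted p under 0.05 was found in 6.58%, and groups that did not overlap in 11.7%. With DESeq2 on counts at the same thresholds, the study reported far more genes, in both directions. A gene not called here can therefore be among those the study called. Of the 6 tested genes of the axis, 0 were called by limma, 0 had an unadjusted p under 0.05, and in 0 did the groups separate. Their median log2 fold change was -0.03, beside -0.004 for all genes tested. In bulk tissue, fewer cells of a type and less RNA per cell cannot be told apart.

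*Il4*, *Il13* and *Il5* lie close together on chromosome 11 with *Rad50* and *Kif3a* between or beside them, yet only *Il4* of the 3 had fragments enough to test. Their promoters are shown because these are the sequences through which type 2 cells switch the cytokines on. The sequences are RefSeq promoters (GRCm38.p6) from 250 bases before to 50 bases after the annotated start, read along the strand of the gene. Capitals mark matches on either strand to the NFAT core TGGAAA (which reads TTTCCA from the other strand), the GATA core TGATAA and the spacing that STAT6 prefers, TTC and GAA with 4 bases between them. NFAT carries the signal of the activated antigen receptor, and GATA3 is the defining factor of Th2 cells and ILC2. *Il4* lies at chr11:53618616-53618915 on the minus strand, *Il13* at chr11:53634653-53634952 on the minus strand and *Il5* at chr11:53720544-53720843 on the plus strand.
Il4: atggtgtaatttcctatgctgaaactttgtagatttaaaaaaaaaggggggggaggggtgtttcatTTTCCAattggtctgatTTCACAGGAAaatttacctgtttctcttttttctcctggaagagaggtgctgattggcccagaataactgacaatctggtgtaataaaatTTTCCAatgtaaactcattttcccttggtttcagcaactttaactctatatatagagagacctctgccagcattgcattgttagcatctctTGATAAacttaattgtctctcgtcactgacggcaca
Il13: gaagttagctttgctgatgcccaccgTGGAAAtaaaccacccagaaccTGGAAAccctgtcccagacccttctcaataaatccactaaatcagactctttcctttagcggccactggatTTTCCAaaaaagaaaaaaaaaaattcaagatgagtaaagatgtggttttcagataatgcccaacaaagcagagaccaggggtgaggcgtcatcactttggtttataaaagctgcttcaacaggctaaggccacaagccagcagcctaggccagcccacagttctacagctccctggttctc
Il5: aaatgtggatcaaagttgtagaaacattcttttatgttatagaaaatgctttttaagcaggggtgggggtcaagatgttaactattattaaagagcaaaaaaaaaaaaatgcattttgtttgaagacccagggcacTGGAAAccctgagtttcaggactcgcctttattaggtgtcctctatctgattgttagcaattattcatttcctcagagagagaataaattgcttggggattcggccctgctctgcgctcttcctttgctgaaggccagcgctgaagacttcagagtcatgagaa

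The *Il4* promoter held NFAT cores whose first bases were at -184 and -77 from the start, the STAT6 spacing TTCACAGGAA at -167 and a GATA core at 15 bases past the start. *Il13* held 3 NFAT cores, at -224, -202 and -131, and *Il5* held 1, at -114. Among 32851 mouse promoters of this length, 21.4% hold an NFAT core, 9.05% the GATA core and 6.95% the STAT6 spacing. The spacing of STAT5, the factor that TSLP activates, is TTCNNNGAA and occurs in 8.30% of promoters. In the 12 promoters found for 9 of the 10 genes, that spacing was met once, in a second promoter of *Il4* at -4, where it overlaps an NFAT core. The first promoter of *Il33* held the STAT6 spacing TTCTGGGGAA at -36. *Il1rl1*, which has a pair of promoters, held a GATA core at -80 in 1 and an NFAT core at 12 bases past the start in the other. None of the 4 motifs was found in the promoters of *Il17rb*, *Il4ra*, *Il13ra1* and *Stat6*. These matches are letters in a sequence and were not tied to the levels below.

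*Il33* (ENSMUSG00000024810, chromosome 19, 29925114 to 29960718, plus strand), the nuclear alarmin, was among the most abundant genes of the axis and did not separate the groups. It was measured at 30.9, 24.7 and 21.5 FPKM in WT hearts and at 28.9, 31.4 and 17.1 FPKM in *Crlf2*-/- hearts. The highest and the lowest library were both knockouts, and the WT values lay between them. The means were 25.7 ± 4.80 FPKM (SD, n = 3) and 25.8 ± 7.65 FPKM (SD, n = 3). The log2 fold change was -0.03 (SE 0.24, limma adjusted p = 0.996), with a 95% interval of 0.669 to 1.44 as a fold. Each value rests on 1106 to 2120 fragments. Its level was above that of 90.3% of the genes tested.

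*Il1rl1* (ENSMUSG00000026069, chromosome 1, 40429570 to 40465415, plus strand), which encodes the IL-33 receptor ST2, was in FPKM the lowest gene of the axis that could be tested. Its libraries held 67, 42 and 50 fragments in WT hearts and 57, 63 and 43 in *Crlf2*-/- hearts, more in each than *Il4*. These correspond to 0.425, 0.279 and 0.331 FPKM in WT and to 0.375, 0.390 and 0.278 FPKM in *Crlf2*-/- hearts, ranges that overlap almost entirely. The log2 fold change was 0.01 (SE 0.23, limma adjusted p = 0.997), with a 95% interval of 0.699 to 1.45 as a fold. *Il33* exceeded *Il1rl1* by 61.4 to 88.7 times in FPKM, depending on the library. That ratio rests on exon lengths of 2886 and 6894 bases, each taken over all transcripts of the gene. The gene has 5 annotated transcripts, and a value per gene does not separate the soluble from the membrane-bound receptor.

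*Il4* (ENSMUSG00000000869, chromosome 11, 53602982 to 53618669, minus strand), the cytokine of Th2 cells, mast cells and basophils, was detected in every heart at a low level. The WT libraries held 56, 39 and 46 of its fragments and the knockout libraries 52, 45 and 36. In FPKM these were 2.0, 1.45 and 1.71 in WT and 1.92, 1.57 and 1.31 in *Crlf2*-/- hearts. The ranges overlapped, with the lowest value in a knockout and the highest in a WT heart. The log2 fold change was -0.11 (SE 0.19, limma adjusted p = 0.996), with a 95% interval of 0.684 to 1.26 as a fold.

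The *Il4* model has 4 transcripts in GENCODE M21 (GRCm38), and of its 1227 exon bases 244 (19.89%) belong only to the transcript Il4-202. The last exon of that transcript, at chr11:53602982-53603160 on the minus strand, lies 1014 bases beyond the annotated end of *Kif3a*, a kinesin motor gene that runs toward it on the other strand. It is printed because it lies far beyond the other transcripts, which end at 53612460, and its capitals mark the polyadenylation signal AATAAA.
Il4-202 last exon: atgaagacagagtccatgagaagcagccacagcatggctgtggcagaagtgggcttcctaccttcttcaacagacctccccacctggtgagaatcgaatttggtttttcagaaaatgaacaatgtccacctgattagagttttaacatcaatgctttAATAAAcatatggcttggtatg

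Whether the fragments counted for *Il4* fell in the exons of the other transcripts or in this exon is not shown by a value per gene. *Kif3a* was measured at 7.33, 6.16 and 7.37 FPKM in WT and 9.37, 7.66 and 7.06 FPKM in *Crlf2*-/- hearts. Whether the authors' counting used strand is not given in the sources used here, so a part of *Kif3a* in the *Il4* value was not tested.

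**Figure D1:**
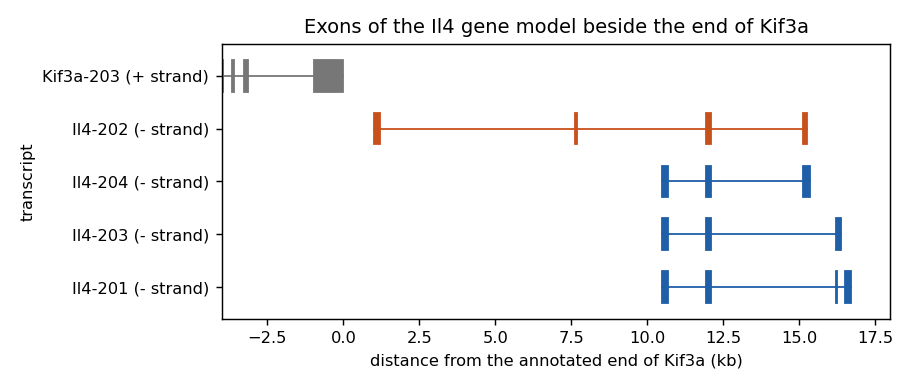
Exons (boxes) of the 4 *Il4* transcripts and of the end of *Kif3a*, by distance in kb from the annotated end of *Kif3a*; lines are introns. Il4-202 (orange) ends close to *Kif3a* (gray), and the other transcripts (blue) end far from it.

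The other 4 ligands and receptors gave too few fragments for a comparison. *Il13* (ENSMUSG00000020383, chromosome 11, 53631324 to 53634702), the effector cytokine of ILC2, was at 0 fragments in all 6 libraries. A count of 0 allows up to 3 fragments, which is 0.0185 FPKM over the 6 libraries and 0.106 to 0.114 FPKM in a single library. *Il5* (ENSMUSG00000036117, chromosome 11, 53720794 to 53725106), which sustains eosinophils, was counted 1, 0 and 2 times in WT hearts and 0, 2 and 3 times in knockout hearts. Its *Crlf2*-/- to WT ratio was 1.63, with an exact 95% interval of 0.318 to 10.5 that covers counting error only. The *Il5* model also shares 417 of its 1537 exon bases with the antisense gene *Gm12214*.

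*Il25* (ENSMUSG00000040770, chromosome 14, 54932695 to 54935837), the ligand related to IL-17, gave 2, 4 and 0 fragments in the WT hearts against 1, 0 and 0 in the knockouts. The sums of 6 and 1 gave a ratio of 0.163 with an exact 95% interval of 0.00355 to 1.35, so a difference was not detectable at this depth. *Il17rb* (ENSMUSG00000015966, chromosome 14, 29996135 to 30008896), its receptor, was alone among the 4 in having fragments in every library, 2, 5 and 6 in WT and 7, 2 and 4 in *Crlf2*-/- hearts. Both groups summed to 13, which is 0.0526 FPKM in WT and 0.0516 FPKM in *Crlf2*-/- hearts, and the ratio of 0.980 had an interval of 0.419 to 2.30. The *Il17rb* model shares 141 exon bases with *Actr8* on the other strand, whose part in these fragments was not tested.

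**Figure D2:**
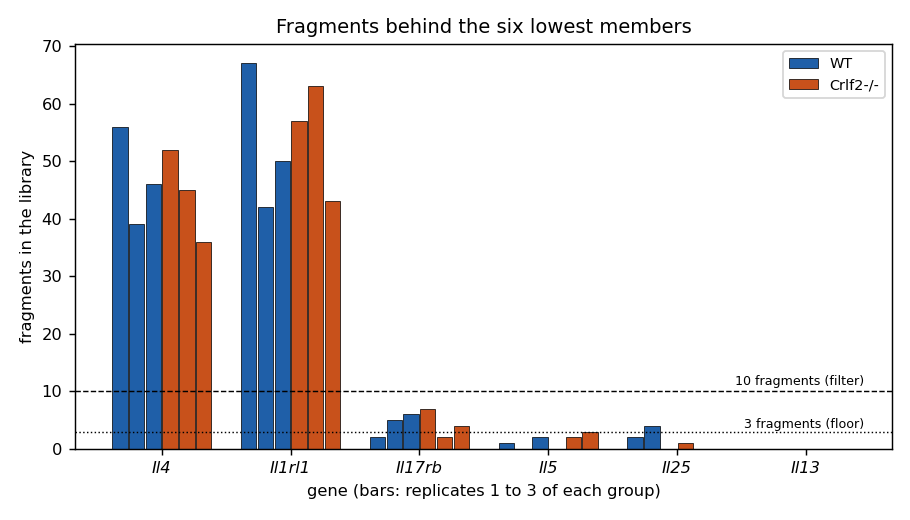
Fragments per library for the 6 lowest genes of the axis; bars are replicates 1 to 3 of WT (blue) and *Crlf2*-/- (orange). *Il4* and *Il1rl1* had 36 to 67 fragments in each library, above the filter of 10 (dashed line), whereas *Il17rb*, *Il5*, *Il25* and *Il13* stayed at 7 or fewer.

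*Il4ra* (ENSMUSG00000030748, chromosome 7, 125552120 to 125579474, plus strand), the chain shared by the IL-4 and IL-13 receptors, was abundant in all hearts. It was measured at 24.2, 24.5 and 22.0 FPKM in WT and at 25.5, 27.8 and 21.7 FPKM in *Crlf2*-/- hearts. The top 2 libraries were knockouts, and so was the lowest. The log2 fold change was 0.08 (SE 0.12, limma adjusted p = 0.995), with a 95% interval of 0.874 to 1.28 as a fold. Of its 6002 exon bases, 571 are shared with the antisense gene *Gm44876*.

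*Il13ra1* (ENSMUSG00000017057, chromosome X, 36112110 to 36171259, plus strand), which completes the type II receptor for IL-4 and IL-13, had the highest level of the axis. It was measured at 31.0, 28.0 and 28.9 FPKM in WT and at 31.4, 28.0 and 24.6 FPKM in *Crlf2*-/- hearts. Only 1 knockout library lay below the WT range. The log2 fold change was -0.07 (SE 0.12, limma adjusted p = 0.995), with a 95% interval of 0.789 to 1.15 as a fold.

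*Stat6* (ENSMUSG00000002147, chromosome 10, 127642986 to 127660957, plus strand), the transcription factor downstream of both receptors, was the most even gene of the axis. Its values were 22.9, 24.0 and 24.0 FPKM in WT and 24.8, 21.8 and 23.0 FPKM in *Crlf2*-/- hearts. The highest and the lowest library were both knockouts. The log2 fold change was -0.03 (SE 0.10, limma adjusted p = 0.996), with a 95% interval of 0.841 to 1.14 as a fold, the narrowest of the 6. The gene shares 40 exon bases with *Nab2* on the other strand.

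Exact permutation tests on the same log values (two-sided; 3 libraries against 3 cannot go below p = 0.1) gave p = 1 for *Il33* and *Il1rl1*, p = 0.7 for *Il4*, *Il13ra1* and *Stat6*, and p = 0.5 for *Il4ra*. The limma intervals of the 6 genes together ran from 0.669 to 1.45 as a fold. For each gene, a change within its own interval could not be told from none with 3 libraries in each group. The sign of the fold change turned for each of the 6 except *Il4ra* when a single library was left out. Over these settings it ran from -0.19 to 0.25 for *Il33*, from -0.10 to 0.14 for *Il1rl1*, from -0.24 to 0.03 for *Il4*, from -0.16 to 0.02 for *Il13ra1*, from -0.08 to 0.02 for *Stat6* and from 0.002 to 0.18 for *Il4ra*.

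**Figure D3:**
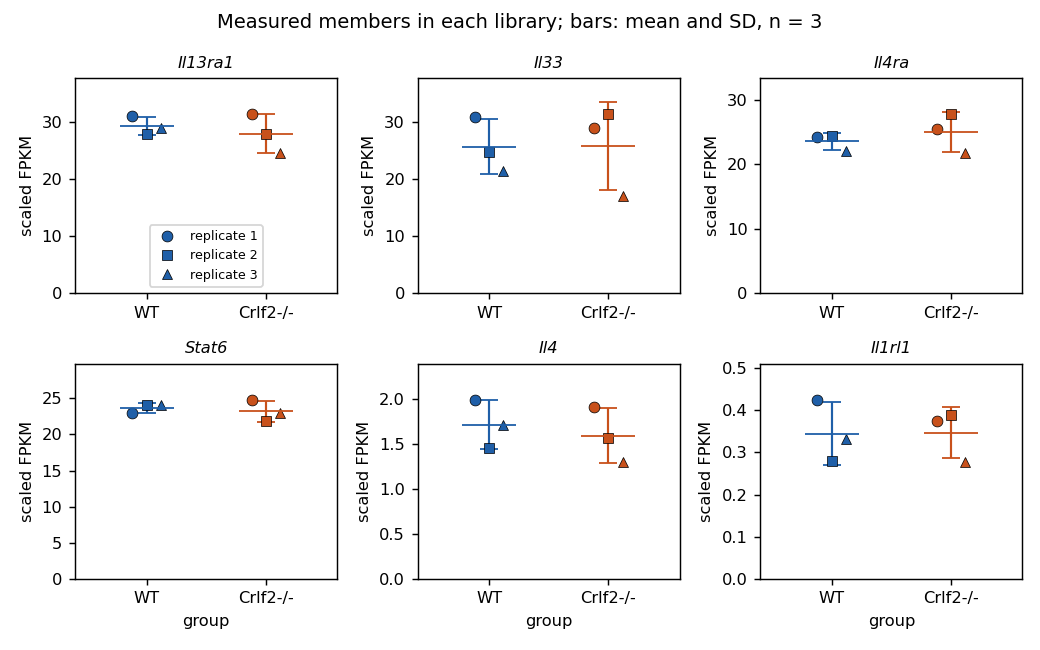
Scaled FPKM (vertical axes, from 0) of the 6 measured genes in each library, WT in blue and *Crlf2*-/- in orange, with the mean and SD of 3 libraries. The groups overlap in every panel, and relative to the mean the spread is widest for *Il33* (17.1 to 31.4 FPKM) and narrowest for *Stat6* (21.8 to 24.8 FPKM).

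Per length, the axis had an abundant and a scarce part. *Il13ra1* (28.6 FPKM over the 6 libraries), *Il33* (25.7), *Il4ra* (24.3) and *Stat6* (23.4) followed each other closely, and the ranges of neighbors in this order overlapped. *Il4* at 1.66 FPKM was 14.1 times below *Stat6*, and *Il1rl1* at 0.346 FPKM was 4.79 times below *Il4*, without overlap at either step. The level of *Il13ra1* exceeded 91.5% of the genes tested, that of *Il4* 30.3% and that of *Il1rl1* 9.39%. The coefficient of variation over the 6 libraries was 4.48% for *Stat6*, 8.61% for *Il13ra1* and 9.28% for *Il4ra*, and it was 16.2% for *Il4*, 17.5% for *Il1rl1* and 22.2% for *Il33*. *Crlf2*-/- replicate 3 was the lowest library for 5 of the 6 genes, all but *Stat6*, whereas 15.7% of all genes tested were lowest there. The highest library was WT replicate 1 for 2 of the genes, *Crlf2*-/- replicate 1 for 2 and *Crlf2*-/- replicate 2 for 2.

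No chain or cytokine that works beside the axis was called different. Of 15 partner genes, 9 were tested and 0 had an unadjusted p under 0.05 in limma, with a median log2 fold change of -0.08. *Il1rap*, the accessory chain of ST2, was measured at 2.53, 2.58 and 3.42 FPKM in WT and 3.27, 2.74 and 2.90 FPKM in *Crlf2*-/- hearts. The smallest p of the list belonged to *Il13ra2*, the decoy receptor of IL-13, at 0.498, 0.281 and 0.260 FPKM in WT and 0.139, 0.112 and 0.390 FPKM in *Crlf2*-/- hearts (log2 fold change -0.57, SE 0.37, limma adjusted p = 0.905). *Osmr*, which pairs with the IL-31 receptor, followed with a log2 fold change of -0.25, and *Il2rg*, the common γ chain, with -0.12. *Tslp* itself gave 16, 20 and 26 fragments in the WT libraries against 21, 20 and 21 in the knockouts. *Il9* and *Il31* were at 0 fragments in all libraries, and *Il5ra*, the chain that binds IL-5, had 3 or fewer in each.

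The 17 adaptors, kinases and inhibitors of these receptors were all tested, with a median log2 fold change of 0.04. Of them 1 had an unadjusted p under 0.05 in limma, beside 6.58% of all genes tested. That gene was *Cish*, a feedback inhibitor that STAT5 induces downstream of TSLP and IL-2 family cytokines. It was measured at 1.06, 1.42 and 1.14 FPKM in WT and 0.558, 0.705 and 0.922 FPKM in *Crlf2*-/- hearts. Its groups did not overlap, as in 11.7% of all genes tested. Its difference did not pass the test over all genes (log2 fold change -0.67, SE 0.22, limma adjusted p = 0.551). *Irak2*, a kinase of the IL-33 signaling complex, had all 3 knockout values (5.90, 5.10 and 5.18 FPKM) above the WT values (4.54, 4.03 and 4.82 FPKM), with a log2 fold change of 0.27 (SE 0.12, limma adjusted p = 0.773). *Socs3*, an inhibitor of cytokine receptors, had a log2 fold change of 0.25 (SE 0.12, limma adjusted p = 0.798). *Myd88*, *Jak1*, *Jak2*, *Jak3* and *Tyk2*, which carry the signals of IL-33, IL-4 and IL-13, had log2 fold changes of -0.08, -0.10, 0.04, 0.12 and 0.08.

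**Figure D4:**
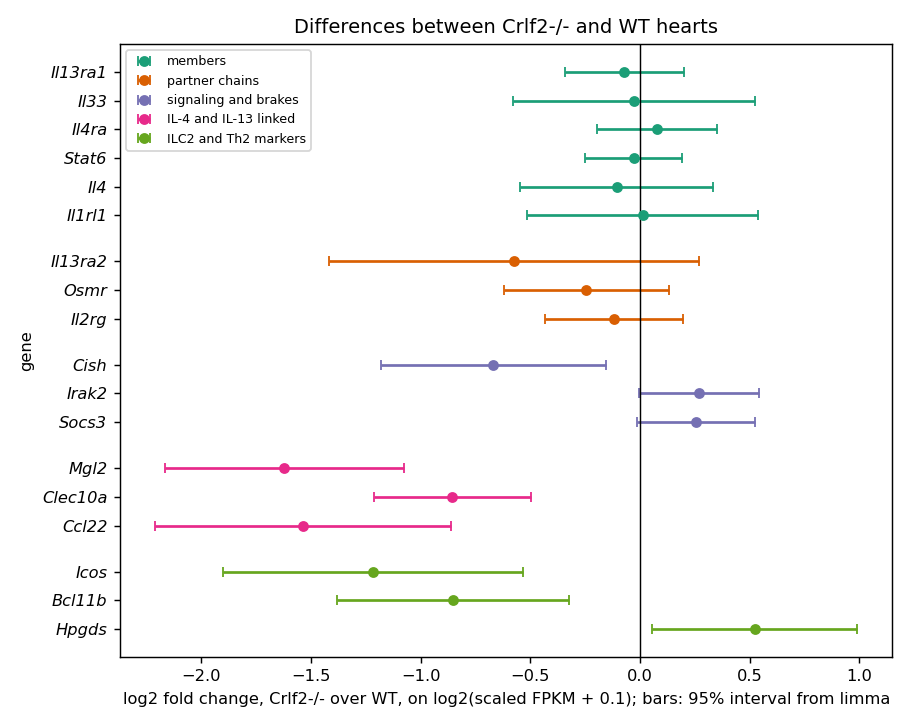
Log2 fold changes (horizontal axis, *Crlf2*-/- over WT) with 95% intervals from limma for the 6 measured genes of the axis and for the 3 genes with the smallest p in each of 4 pathway lists. The intervals of the 6 cross 0 and stay within -0.58 and 0.54. Those of *Mgl2*, *Clec10a*, *Ccl22*, *Cish*, *Icos* and *Bcl11b* lie below 0 and that of *Hpgds* above 0, but these genes were drawn for their small p. None of the genes drawn was called.

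Genes linked to IL-4 and IL-13 had point estimates in both directions, 8 higher and 8 lower. Of 19 such genes 16 were tested, 0 were called, 4 had a lower and 0 a higher level at an unadjusted p under 0.05 in limma, and the median log2 fold change was -0.03. Among all genes tested, 3.36% had a lower level at that p. The 4 were *Mgl2* and *Clec10a*, lectins of macrophages and dendritic cells, and *Ccl22* and *Ccl17*, the ligands of CCR4. *Mgl2* was measured at 0.773, 0.852 and 0.894 FPKM in WT and 0.151, 0.184 and 0.297 FPKM in *Crlf2*-/- hearts (log2 fold change -1.62, SE 0.24, limma adjusted p = 0.109). *Clec10a* had 2.41, 2.92 and 2.79 FPKM in WT and 1.69, 1.33 and 1.35 FPKM in *Crlf2*-/- hearts (log2 fold change -0.86, SE 0.16, limma adjusted p = 0.150). *Ccl22* had 1.24, 0.689 and 1.00 FPKM in WT and 0.214, 0.202 and 0.402 FPKM in *Crlf2*-/- hearts (log2 fold change -1.54, SE 0.29, limma adjusted p = 0.181). In these 3 genes every knockout library lay below every WT library, and in *Ccl17* the groups overlapped (log2 fold change -0.45, SE 0.19, limma adjusted p = 0.729).

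The other genes of this list had no unadjusted p under 0.05. *Mrc1*, the macrophage mannose receptor, was measured at 23.9, 20.6 and 18.4 FPKM in WT and 21.5, 24.8 and 19.0 FPKM in *Crlf2*-/- hearts. *Arg1*, arginase of alternatively activated macrophages, ranged from 5.34 to 12.1 FPKM in WT and was 48.6, 13.4 and 5.07 FPKM in *Crlf2*-/- hearts. The value of 48.6 FPKM was that of *Crlf2*-/- replicate 1, which was also highest for *Alox15*, a lipoxygenase (5.26 FPKM against 0.224 to 0.837 FPKM in the other libraries), and for *Ccl24*, an eosinophil attractant (1.92 FPKM against 0.0344 to 0.593 FPKM). These 3 genes were chosen after their values were seen. Without that library the median of the list was -0.36, and without *Crlf2*-/- replicate 3 the number of its genes at an unadjusted p under 0.05 was 7.

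**Figure D5:**
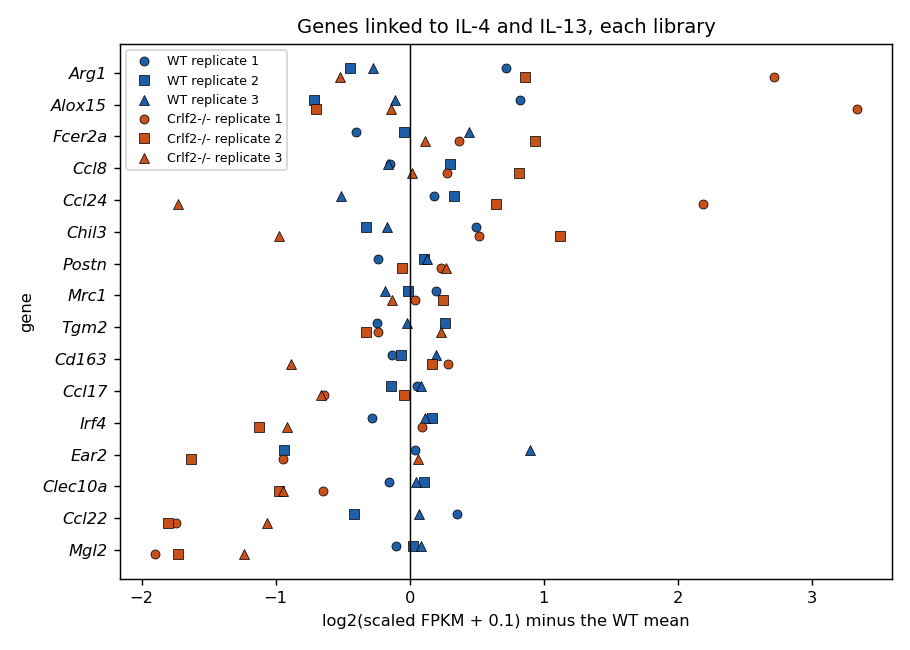
Each of 16 genes linked to IL-4 and IL-13 in each library, as log2(scaled FPKM + 0.1) minus the WT mean (horizontal axis); WT in blue, *Crlf2*-/- in orange, a symbol for each replicate. Knockout points lie left of all WT points for *Mgl2*, *Ccl22* and *Clec10a*, and the far right points of *Arg1*, *Alox15* and *Ccl24* belong to *Crlf2*-/- replicate 1.

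Markers of the cells that respond to IL-33 and IL-25 had mixed levels, some below the filter and some, such as *Rora* (2.24 to 4.16 FPKM), well above it. Of 14 markers of ILC2 and Th2 cells, 8 were tested. At an unadjusted p under 0.05 in limma, 1 had a higher and 2 a lower level (3.22% and 3.36% of all genes tested). The median log2 fold change was -0.05. This list is not separate from the axis, since it holds *Il1rl1* and *Il17rb*, and also *Il7r* and *Areg* of the partner genes. Its median lies between the values of *Il7r* (-0.11) and *Il1rl1* (0.01). *Icos*, a costimulatory receptor of T cells and ILC2, had 0.688, 0.653 and 0.346 FPKM in WT and 0.251, 0.124 and 0.169 FPKM in *Crlf2*-/- hearts. Its log2 fold change was -1.22 (SE 0.30, limma adjusted p = 0.315). The study, with DESeq2 on counts, named *Icos* as lower in *Crlf2*-/- mice. *Bcl11b*, a T cell and ILC2 factor, had a log2 fold change of -0.85 (SE 0.23, limma adjusted p = 0.369). *Hpgds*, a prostaglandin D synthase, had 6.78, 4.08 and 7.21 FPKM in WT and 9.0, 8.23 and 8.10 FPKM in *Crlf2*-/- hearts (log2 fold change 0.52, SE 0.20, limma adjusted p = 0.700). *Gata3* was measured at 0.0805 to 0.209 FPKM in all 6 libraries, and its log2 fold change was -0.20. *Ccr4*, the receptor for CCL17 and CCL22, was below the filter, with 0, 0 and 1 fragments in the WT libraries against 5, 6 and 5 in the knockouts, a pattern singled out after its values were seen.

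Of 10 mast cell markers 6 were tested and 1, the protease *Mcpt4*, had a lower level at an unadjusted p under 0.05 (median log2 fold change -0.38). Their summed level was 6.19 to 8.87 FPKM in WT and 5.37 to 7.79 FPKM in *Crlf2*-/- hearts. Of 9 eosinophil and basophil markers 2 were tested, and the defining granule gene *Epx* had at most 1 fragment in a library. The cell types that make IL-33 were read from 10 fibroblast and 10 endothelial markers, whose median log2 fold changes were -0.13 and -0.13. At an unadjusted p under 0.05, 2 fibroblast markers (*Tcf21* and *Pi16*) and 1 endothelial marker (*Tek*) had a lower level, and 0 of either list a higher one. Summed fibroblast markers were at 6622 to 7756 FPKM in WT and 7648 to 7851 FPKM in *Crlf2*-/- hearts, and endothelial markers at 229 to 271 and 221 to 243 FPKM. Of 10 macrophage markers 2 had a higher and 0 a lower level at an unadjusted p under 0.05 (median log2 fold change 0.10).

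Median differences were larger for markers of some other cell types. Of 10 T cell markers 9 were tested, and 8 of them had a lower level at an unadjusted p under 0.05, with a median log2 fold change of -1.33. That median was -0.67 with a pseudocount of 1, -1.67 with a pseudocount of 0.01 and -1.68 with voom. The summed level of the T cell markers was 15.7 to 23.6 FPKM in WT and 8.89 to 11.4 FPKM in *Crlf2*-/- hearts. All 5 tested red blood cell genes were lower at that p (median log2 fold change -1.29), and 3 of 10 cardiomyocyte markers were (median log2 fold change -0.66). Summed cardiomyocyte markers were at 1092 to 2069 FPKM in WT and 739 to 1451 FPKM in *Crlf2*-/- hearts, ranges that overlapped. Of 11 dendritic cell markers, listed after the values of *Mgl2* and *Ccl22* were seen, 3 had a lower level at an unadjusted p under 0.05 (*Cd209a*, *Ccr7* and *Zbtb46*), with a summed level of 225 to 245 FPKM in WT and 189 to 238 FPKM in *Crlf2*-/- hearts. None of these genes was called by limma. With DESeq2 on counts, the study named *Cd3e* and *Lck* of the T cell markers as lower in *Crlf2*-/- mice. Of 9 epithelial and mesothelial markers 8 were tested and 0 had an unadjusted p under 0.05 (median log2 fold change 0.34). Their summed level was 32.3 FPKM in *Crlf2*-/- replicate 1, the library highest for *Arg1*, *Alox15* and *Ccl24*, against 11.4 to 22.6 FPKM in the others. The part of these cell types in the values of *Mgl2*, *Clec10a*, *Ccl22*, *Icos*, *Bcl11b* and *Cish* was not tested.

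Genes beside the axis on the chromosome were read for comparison. Around the cytokines on chromosome 11, *Rad50*, *Kif3a* and *Irf1* had log2 fold changes of 0.24, 0.20 and 0.07, and 0 of the 3 had an unadjusted p under 0.05 in limma. Of 5 genes of the IL-1 receptor cluster around *Il1rl1*, 1 did. That gene was *Il1rl2*, the IL-36 receptor, at 2.74, 3.14 and 2.90 FPKM in WT and 4.89, 3.54 and 3.69 FPKM in *Crlf2*-/- hearts. All knockout values were above the WT values, and the difference did not pass the test (log2 fold change 0.44, SE 0.15, limma adjusted p = 0.577). *Il1r1*, *Il1r2*, *Il18r1* and *Il18rap*, the other receptors of the cluster, had log2 fold changes of -0.05, -0.43, -0.28 and 0.02.

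The genes whose pattern over the 6 libraries lay nearest to that of *Il33* were *Rspo3*, a Wnt agonist, *Gsr*, glutathione reductase, and *Gm11451*. Their root mean square differences from it on the centered log2 scale were 0.0738, 0.0858 and 0.0929, where *Il33* itself varied by 0.314. *Rspo3* was measured at 1.17, 0.977 and 0.813 FPKM in WT and 1.17, 1.09 and 0.648 FPKM in *Crlf2*-/- hearts, lowest in the same library as *Il33*. Nearest to *Il1rl1* were *AC151284.2*, *Asf1a*, a histone chaperone, and *4930503L19Rik*, at 0.0476, 0.0536 and 0.0550, where *Il1rl1* varied by 0.181. With 6 libraries that share tissue and depth these are descriptions of likeness.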

How the data were processed

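Hearts with infarct from WT and *Crlf2*-/- mice, 3 of each, were sequenced on day 7 post-MI. By the study's methods, reads were trimmed and mapped with HISAT2 (2.0.5 in the submitters' processing notes, which list the builds hg38 and mm10), featureCounts gave fragments for every gene, and DESeq2 was run by the authors on counts. The values the authors deposited are FPKM, with the length of each gene. Positions and lengths of the 10 genes equal those of GENCODE M21 (GRCm38). The table held 0 columns of other samples and 0 rows without a gene name.

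Every nonzero FPKM times length was a whole number of 1 library-specific unit (100% of values, tolerance 0.05), which gave the fragments behind it. TMM factors computed from these fragments scaled the FPKM. limma 3.58.1 (R 4.3.3; lmFit, then eBayes, both trend and robust on) was fitted to log2(FPKM + 0.1) for genes that reached 10 fragments in 3 or more libraries and 15 overall. The thresholds for a call were those of the study, but the test was not, since the study ran DESeq2 on counts. Members below the filter are given as fragments, with an exact binomial 95% interval of the ratio between groups. Where the count was 0, the level of 3 fragments is given instead. Both cover counting error only. Libraries within a group differed by more than sampling noise, so none was taken for a duplicate. The fit was tested on simulated fragments. Other steps used Python 3.11.15 with pandas 2.3.3, numpy 2.4.6, matplotlib 3.10.9 and scipy 1.17.1.

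Genes were named as the 10 members, *Crlf2*, the 3 tested genes of smallest p in each pathway list, the neighbors of 2 loci and the 3 genes most like *Il33* and *Il1rl1*; other genes named are examples from the lists, chosen after their values were seen. The members and lists were chosen with earlier results of these data known. Alternatives were pseudocounts of 1 and 0.01, FPKM as deposited, median-of-ratios scaling, hemoglobin and mitochondrial genes left out, no filter, 10 fragments in every library, the replicate number as a block, each library left out, and voom on the fragments.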

Additional observations from a re-analysis of the deposited data

How the results depend on the processing

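None of the 6 tested genes of the axis was called, and none reached an unadjusted p under 0.05, under any of the 15 alternatives run. The log2 fold changes of these 6 ran from -0.24 to 0.25 and their limma adjusted p from 0.885 to 0.9998. Of 90 fold changes recomputed for the 6 tested genes, 80 kept their sign and 10 did not, each with a library left out. *Il33* ran from -0.19 to 0.25 (0.11 without WT replicate 1, 0.25 without *Crlf2*-/- replicate 3) and *Il4* from -0.24 to 0.026 (0.00076 and 0.026 without these libraries). *Il1rl1* ran from -0.10 to 0.14, at -0.10 and -0.0044 without WT replicates 2 and 3 and at -0.036 and -0.056 without *Crlf2*-/- replicates 1 and 2. *Stat6* ran from -0.077 to 0.017 (0.017 without *Crlf2*-/- replicate 2) and *Il13ra1* from -0.16 to 0.023 (0.023 without *Crlf2*-/- replicate 3). With no filter, 1 gene of the axis (*Il13*, at 0) stayed untested in place of 4. *Il25*, *Il17rb* and *Il5* entered that fit, but their own fold changes and p in it were not read.

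Over all genes, 2 were called (1 higher, 1 lower). With no filter 6 were called (2 higher, 4 lower), and with 10 fragments required in every library 1 was (0 lower). Voom on the fragments called 2 lower. With 1 library left out, 1 to 14 genes were called (1 to 4 higher, 0 to 10 lower), 646 to 1138 had an unadjusted p under 0.05 and 2616 to 3803 did not overlap; the most calls, 14, came without *Crlf2*-/- replicate 1. Of the members 0 to 1 did not overlap, *Il4ra* without *Crlf2*-/- replicate 3. At an unadjusted p under 0.05 were then 0 to 1 partner genes, 0 to 2 adaptor genes and 3 to 7 genes linked to IL-4 and IL-13. The medians ran from -0.031 to 0.073 for the adaptors and from -0.36 to 0.15 for the linked genes. The median of the mast cell markers depended on the pseudocount and the filter: -0.14 with a pseudocount of 1, -0.14 with no filter and -0.10 with 10 fragments in every library, against -0.38. It also depended on single libraries, at -0.10 without *Crlf2*-/- replicate 3, -0.16 without WT replicate 2 and -0.19 without WT replicate 3.

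The replicate numbers were not taken to pair the libraries, since WT and knockout libraries of equal number had correlations of -0.02, 0.12 and 0.12 in their deviations from the group means. Of the WT libraries 1 of 3 correlated best with its own number, and of the *Crlf2*-/- libraries 1 of 3. With the replicate number as a block, 4 genes were called (3 lower), none of them a member, and the adjusted p of the members ran from 0.961 to 0.996. Counting error limits *Il1rl1* and *Il4* at under 70 fragments a library and leaves no comparison for *Il25*, *Il17rb*, *Il13* and *Il5*.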
